A study of Homo sapiens with 6 samples.

Results

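Potassium channel genes were followed in SKOV3 cells, a human ovarian carcinoma cell line, with and without silencing of KLF5, a zinc finger transcription factor of the Krüppel-like family. The genes were chosen by name, as every protein-coding gene in the deposited table whose symbol starts with KCN. The rule itself used no measured value, but it was set with earlier results of these data known. This gave 70 genes of the 29185 in the table, of which 16074 were protein-coding. By gene family, 30 encode voltage-gated channels, 11 inward rectifiers, 11 two-pore channels and 6 calcium- or sodium-activated channels, 11 encode auxiliary subunits, and the remaining gene is KCNRG. The comparison was between 3 libraries of cells carrying a short hairpin RNA against KLF5 (sh-KLF5) and 3 libraries of control cells (sh-NC). Per the labels, the control cells have the wild-type genotype, and per the study's methods the hairpin was delivered in a pLKO vector with puromycin resistance, giving stable lines after 2 weeks of selection. The study's methods do not say whether the control cells carried a control hairpin or went through the same selection. The sources used here do not give the time from selection to RNA collection, nor whether the libraries of a group came from separate cultures, so the p-values measure only the spread between these libraries, which may be technical.

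The libraries held 15852319 to 17543896 reads counted on genes, and the protein-coding mitochondrial genes took 3.19% to 4.06% of them. Values are normalized counts, each the reads of a gene over a scaling factor of its library, and a count of 0 in a library allows up to 3 reads, a limit that covers counting error only. KLF5 (ENSG00000102554, chr13:73054976-73077542, GRCh38) had 4371, 4425 and 4494 normalized counts in sh-NC and 1745, 1440 and 1436 in sh-KLF5, which left 34.8% of the control level (log2 fold change -1.53, SE 0.12, n = 3 per group, limma adjusted p = 2.47e-07). The exact permutation test on these 6 values gave p = 0.1, the smallest that 3 against 3 libraries allow. The SKOV3 markers KRT8, KRT18, ERBB2, EPCAM and PAX8 were present in every library, and their summed level, with KRT19, ranged from 25010 to 29803 in sh-NC and from 11243 to 16084 in sh-KLF5. Most of that sum was KRT8, which fell (log2 fold change -1.17, limma adjusted p = 4.35e-05), as did KRT18 (-0.64, limma adjusted p = 0.00343). The leukocyte genes PTPRC and LYZ had at most 1 read in a library. The summed level of the endothelial markers PECAM1, CDH5 and VWF ranged from 66.1 to 87.0 in sh-NC and from 34.1 to 73.7 in sh-KLF5, and that of the fibroblast markers DCN, LUM and COL1A1 from 567 to 902 and from 254 to 585. Of the last list DCN fell (log2 fold change -1.82, limma adjusted p = 9.69e-05), while LUM (-0.45) and COL1A1 (0.30) did not pass the test. The part that any of these differences plays in the channel values was not tested, and in bulk RNA fewer cells of one kind and less RNA per cell cannot be told apart.

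Potassium channels let potassium ions leave or enter the cell along their gradient and so set the resting membrane potential. Voltage-gated channels open on depolarization and end action potentials in excitable cells, inward rectifiers pass current mainly near the resting potential, two-pore channels carry the background leak, and calcium-activated channels couple calcium signals to potassium efflux. In cancer cells, channels of each class have been linked to cell volume, migration and passage through the cell cycle. Several of them, among them the EAG channel KCNH1, the ERG channel KCNH2 and the intermediate-conductance channel KCNN4, are known for their expression in tumours.

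Among the 70 genes, 3 rose and 4 fell by more than 1 on the log2 scale with an adjusted p under 0.05. The genes that rose were KCNJ15, KCNH5 and KCNH1, and those that fell included KCNH2, KCNC4 and KCNN4. The test was limma on log2(normalized count + 1) with Benjamini-Hochberg adjustment over all 15803 genes with enough reads, a scale on which genes with few reads show less than their full change. Of the channel genes, 38 had enough reads for the test and 32 did not. Across all genes tested, 1.9% were called higher and 3.37% called lower by the same rule, so that 18.4% of the tested channel genes stood beside 5.28% of all genes. With no limit on the size of the change, 3 channel genes rose and 5 fell, where 6.04% of all genes rose and 6.85% fell, and the gene added was KCNK5. In 5 of the 38 genes every sh-KLF5 library was above every sh-NC library, and in 12 every one was below, against 15.4% and 15.9% of all genes tested. The median log2 fold change was -0.27 over the 38 genes and close to 0 over all genes, with 13 channel genes above 0 and 25 below. Of the 38, 26 passed the read filter through both groups, 6 through sh-NC alone, 4 through sh-KLF5 alone and 2 through a mixture of libraries. KCNH5, KCNH1 and KCNH2 passed only through the group where they were high, so that for them the filter itself is tied to the difference.

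The other 30 tested genes did not pass the p threshold. In 14 of them the 95% interval of the log2 fold change lay within -1 and 1, and in 16 it reached past one of these values, so that a change of 2 times lay inside the interval.

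**Figure D1:**
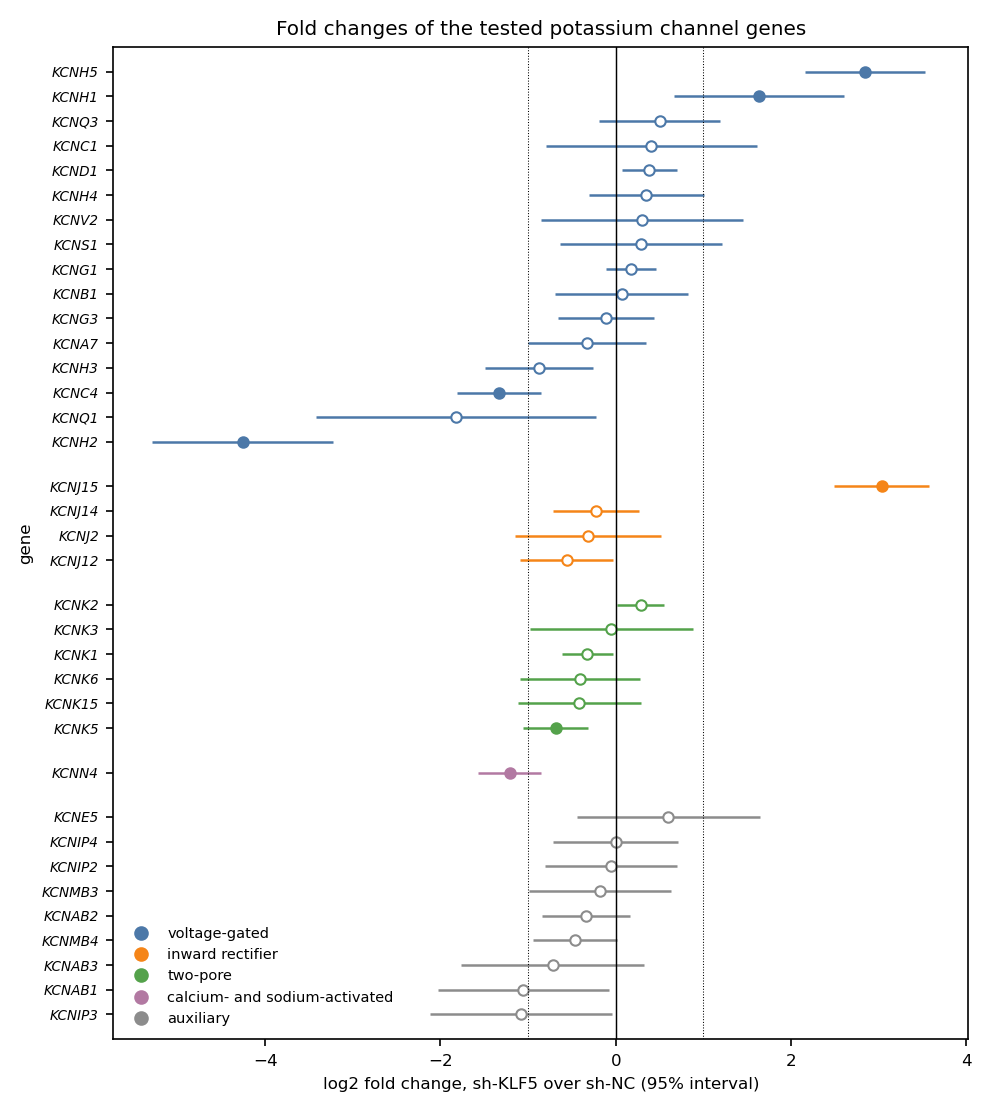
Log2 fold change of sh-KLF5 over sh-NC (x axis) for 36 of the 38 tested potassium channel genes, grouped and coloured by class, with 95% intervals from limma as lines and filled points for adjusted p under 0.05. The points run from -4.25 for KCNH2 to 3.03 for KCNJ15, and dotted lines mark -1 and 1.

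Of the voltage-gated channels, 18 of 30 genes were tested, 2 rose and 3 fell. The KCNH family held both directions. KCNH1 and KCNH5 encode EAG channels, which pass an outward current that does not inactivate, and KCNH2 encodes the ERG channel hERG, which repolarizes the heart muscle cell. The sequences upstream of the start of these 3 genes are printed because the group of factors to which KLF5 belongs is known to bind GC-rich and CACCC boxes. Each is read 5′ to 3′ on the gene's own strand from the RefSeq promoter table (GRCh38.p14) and ends just before the RefSeq start, except that for KCNH1 the last 32 bases were left out because release 29 of GENCODE annotates them as exon. Capitals mark GGGCGG and CACCC on either strand (reverse complements CCGCCC and GGGTG), and boxes that overlap run together.
KCNH1, chr1:211134181-211134398, minus strand: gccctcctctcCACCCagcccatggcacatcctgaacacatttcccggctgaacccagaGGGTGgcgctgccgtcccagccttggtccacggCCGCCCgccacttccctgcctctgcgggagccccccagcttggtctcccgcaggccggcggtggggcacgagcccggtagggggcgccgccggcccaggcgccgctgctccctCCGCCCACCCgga
KCNH5, chr14:63045459-63045708, minus strand: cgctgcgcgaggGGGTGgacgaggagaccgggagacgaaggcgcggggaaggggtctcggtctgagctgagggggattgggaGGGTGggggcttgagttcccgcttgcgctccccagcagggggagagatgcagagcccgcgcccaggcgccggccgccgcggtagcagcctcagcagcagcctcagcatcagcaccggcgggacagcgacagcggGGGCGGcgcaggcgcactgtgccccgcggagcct
KCNH2, chr7:150978322-150978571, minus strand: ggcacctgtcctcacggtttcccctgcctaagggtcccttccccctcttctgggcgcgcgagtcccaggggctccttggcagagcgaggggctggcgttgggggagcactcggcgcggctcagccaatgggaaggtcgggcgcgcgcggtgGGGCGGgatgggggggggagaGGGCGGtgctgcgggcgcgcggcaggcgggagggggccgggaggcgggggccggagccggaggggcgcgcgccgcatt
The KCNH2 stretch held 2 GC boxes and no CACCC, the KCNH1 stretch 2 GC boxes and 3 CACCC, and the KCNH5 stretch 1 GC box and 2 CACCC. The KCNH5 start used by RefSeq lies 56579 bases inside the gene as release 29 draws it. GC boxes of this spelling are common, since 42.6% of the 35116 upstream windows of 250 bases in the table held at least 1, and 54.7% held a CACCC.

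KCNH2 (ENSG00000055118, chr7:150944961-150978315, GRCh38) had 52.1, 45.3 and 32.9 normalized counts in sh-NC and 2.04, 0.97 and 1.003 in sh-KLF5. All sh-NC libraries were far above all sh-KLF5 libraries, where the gene had 2 reads or fewer. The log2 fold change was -4.25 (SE 0.49, limma adjusted p = 1.68e-05). Summed over the libraries, 133 reads in sh-NC stood against 4 in sh-KLF5, a depth-corrected ratio of 33.0 with a 95% counting interval from 12.6 to 123. The size on the log2 scale depended on the pseudocount and ran from -2.92 with a pseudocount of 5 to -5.04 with DESeq2, with the call kept throughout.

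KCNH5 (ENSG00000140015, chr14:62699454-63102037) moved the other way, from 10.2, 8.87 and 13.8 normalized counts in sh-NC to 116, 76.7 and 66.2 in sh-KLF5. The mean rose 7.87 times (log2 fold change 2.85, SE 0.32, limma adjusted p = 1.53e-05), with no overlap between the groups and the widest spread in sh-KLF5. KCNH1 (ENSG00000143473, chr1:210676823-211134180), the second EAG gene, had 3.72, 6.90 and 6.37 normalized counts in sh-NC and 21.4, 19.4 and 17.0 in sh-KLF5. Its log2 fold change was 1.64 (SE 0.46, limma adjusted p = 0.0258), and the groups did not overlap, at no more than 21 reads in any library. This call was the least secure of the 7: it was lost on leaving out any of the 6 libraries, with adjusted p from 0.0514 without sh-KLF5 replicate 3 to 0.106 without sh-NC replicate 1. KCNH1 also shares 36.9% of its exonic bases with a transcript of uncertain status on the opposite strand and 16.1% with another gene model on its own strand, and whether the counting used strand is not given in the sources used here.

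The rest of the KCNH family, named here after their values were seen, did not pass the test. KCNH3, an ELK channel gene, had a log2 fold change of -0.88 (SE 0.29, limma adjusted p = 0.0595) with all sh-KLF5 libraries below all sh-NC libraries, and KCNH4, another ELK gene, one of 0.35 (SE 0.31, limma adjusted p = 0.521). KCNH6, KCNH7 and KCNH8 had at most 4 reads in any library.

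**Figure D2:**
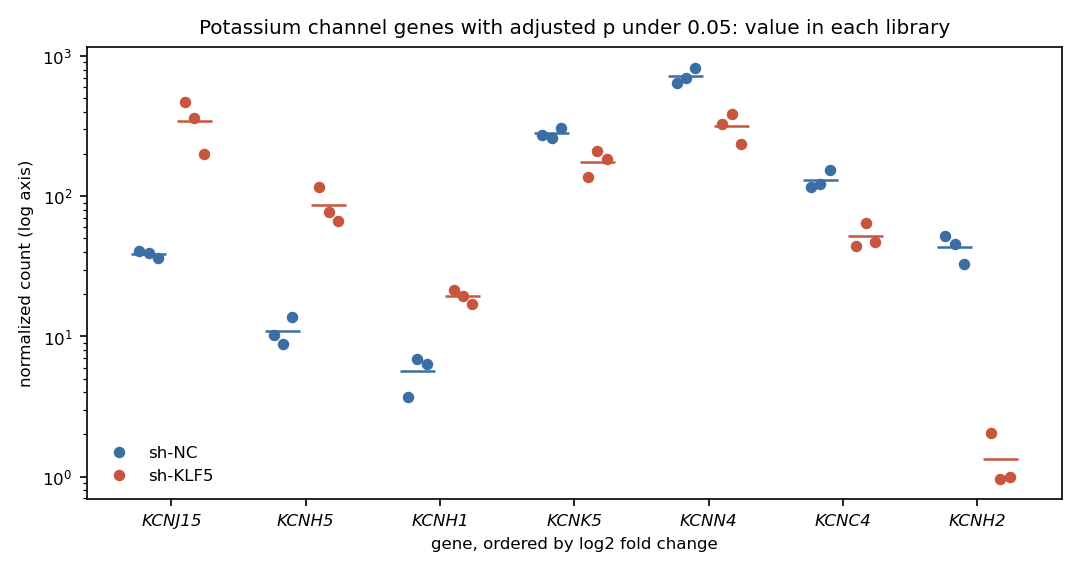
Normalized count in each library (log axis) for 7 of the 8 potassium channel genes with adjusted p under 0.05, ordered by log2 fold change. Blue points are sh-NC, red points sh-KLF5 and lines are group means of 3 libraries, and in each gene the groups stand apart.

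KCNQ1, which encodes the slowly activating delayed channel of heart and epithelia, did not pass the test, at 12, 12 and 18 reads in sh-NC and 5, 11 and 0 in sh-KLF5 (log2 fold change -1.82, SE 0.75, limma adjusted p = 0.133). In the limma fit without a filter, which calls 1.31% of all 29185 genes higher and 2.78% lower, its adjusted p was 0.0254, and its estimate ran from -2.57 to -0.80 as libraries were left out in turn, the latter without sh-KLF5 replicate 3. It shares 2.72% of its exonic bases with the antisense transcript KCNQ1OT1, which had 482 to 1099 reads in a library, so that reads of the 2 genes may not be told apart. KCNQ3, a subunit of neuronal channels that open slowly, had a log2 fold change of 0.50 (SE 0.32, limma adjusted p = 0.359), and KCNQ5 had at most 2 reads in a library. KCNQ3 and KCNQ5 are named after their values were seen.

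KCNC4 (ENSG00000116396, chr1:110211343-110283100), a fast-activating Shaw-type (Kv3) channel gene, had 116, 122 and 155 normalized counts in sh-NC and 43.8, 64.0 and 47.1 in sh-KLF5. It fell to 39.4% of the control mean with no overlap between the groups (log2 fold change -1.34, SE 0.23, limma adjusted p = 0.000655).

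Abundant voltage-gated genes included KCNG1, a silent subunit that modifies Kv2 channels, and KCND1, which carries a transient A-type current. KCNG1 had 366 to 399 normalized counts in sh-NC and 389 to 475 in sh-KLF5, ranges that overlap (log2 fold change 0.18, 95% interval -0.11 to 0.46, limma adjusted p = 0.442). KCND1 had 188, 202 and 201 in sh-NC and 263, 269 and 241 in sh-KLF5. Its groups did not overlap, but with a log2 fold change of 0.38 (95% interval 0.07 to 0.70) it missed the threshold after adjustment (limma adjusted p = 0.105).

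Of the inward rectifiers, 4 of 11 genes were tested, 1 rose and none fell. KCNJ15, which encodes the Kir4.2 channel of kidney and other epithelia, showed the largest rise of all channel genes tested. KCNJ15 (ENSG00000157551, chr21:38155549-38307357) had 41.0, 39.4 and 36.1 normalized counts in sh-NC and 473, 359 and 202 in sh-KLF5. The mean rose 8.87 times (log2 fold change 3.03, SE 0.26, limma adjusted p = 7.11e-07). The sh-NC libraries were close to each other, while the sh-KLF5 libraries spread over more than 2 times, and the lowest of them was still far above the highest control library. The log2 fold change stayed between 2.76 and 3.38 as libraries were left out in turn.

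Several rectifiers with few reads had fewer still in sh-KLF5. KCNJ4, the strong rectifier Kir2.3, had 17, 9 and 8 reads in sh-NC and 0 in each sh-KLF5 library, at least 3.70 times lower when 3 reads per library are allowed for the zeros, and it was called lower in the fit without a filter (limma adjusted p = 8.08e-05). KCNJ11, the pore subunit Kir6.2 of ATP-sensitive channels, had 9, 7 and 5 reads in sh-NC and 0, 1 and 0 in sh-KLF5, and was also called lower without the filter (limma adjusted p = 0.0100); it is named here after its values were seen. KCNJ10, the closest relative of KCNJ15, had 14, 11 and 5 reads in sh-NC and 3, 2 and 2 in sh-KLF5, a ratio of 4.25 with a 95% counting interval from 1.83 to 11.5, and was not called without the filter (limma adjusted p = 0.105).

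The other 3 tested rectifiers did not pass. KCNJ14 had 60.5 to 80.6 normalized counts in sh-NC and 53.0 to 68.2 in sh-KLF5 (log2 fold change -0.23, 95% interval -0.72 to 0.26, limma adjusted p = 0.575). KCNJ12 had 61.5, 91.6 and 60.5 against 46.9, 42.7 and 52.1 normalized counts (log2 fold change -0.56, SE 0.25, limma adjusted p = 0.165). KCNJ12 is uncertain because the near-identical gene KCNJ18 was not among the deposited genes, and reads of KCNJ18 may have been counted on KCNJ12. KCNJ2, Kir2.1, had a log2 fold change of -0.32 with a 95% interval from -1.15 to 0.51 (limma adjusted p = 0.655).

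Of the two-pore channels, 6 of 11 genes were tested, and none passed both limits. KCNK5, the acid-sensitive TASK-2 channel known for its part in cell volume control, fell by 0.68 on the log2 scale (SE 0.17, limma adjusted p = 0.0155). KCNK5 (ENSG00000164626, chr6:39188973-39229450) had 276, 259 and 309 normalized counts in sh-NC and 138, 210 and 183 in sh-KLF5, with no overlap. Its adjusted p was over the threshold without sh-NC replicate 1 (limma adjusted p = 0.0505) and without sh-NC replicate 3 (limma adjusted p = 0.0916). KCNK2, the mechanosensitive TREK-1 channel, had 727, 849 and 836 against 1068, 1030 and 847 normalized counts, where the lowest sh-KLF5 library fell within the sh-NC range (log2 fold change 0.28, 95% interval 0.01 to 0.55, limma adjusted p = 0.167). KCNK1, the weak leak channel TWIK-1, had 610, 574 and 696 against 588, 480 and 440 (log2 fold change -0.32, 95% interval -0.62 to -0.03, limma adjusted p = 0.149), and the groups overlapped. KCNK3, KCNK6 and KCNK15 had log2 fold changes from -0.41 to -0.051, none past the test.

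Among the calcium- and sodium-activated channels only KCNN4 of 6 genes had enough reads. KCNN4 (ENSG00000104783, chr19:43766533-43781261) encodes KCa3.1, which is opened by calcium through bound calmodulin. It had 642, 700 and 828 normalized counts in sh-NC and 329, 384 and 236 in sh-KLF5, and it fell to 43.8% of the control mean (log2 fold change -1.21, SE 0.17, limma adjusted p = 0.000117). The highest sh-KLF5 library was well below the lowest sh-NC library. The call kept the log2 fold change between -1.36 and -1.01 as libraries were left out in turn. KCNN1, a small-conductance channel, had 4, 9 and 5 reads in sh-NC and 0, 1 and 2 in sh-KLF5, and KCNMA1, the pore of the large-conductance BK channel, had 3, 1 and 0 reads in sh-NC and none in sh-KLF5. KCNN3, KCNT1 and KCNT2 also had no read in any sh-KLF5 library and at most 3 in an sh-NC library, so that no difference was detectable for these genes at this depth.

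Of the auxiliary subunits, 9 of 11 were tested and none passed. KCNAB1, KCNAB2 and KCNAB3 encode cytoplasmic beta subunits of Kv1 channels, the KCNIP genes calcium-binding partners of Kv4 channels such as KCND1, KCNMB3 and KCNMB4 beta subunits of the BK channel, and the KCNE genes small membrane partners of KCNQ1 and other channels. KCNAB1 had 23.3, 18.7 and 30.8 against 18.3, 13.6 and 5.01 normalized counts (log2 fold change -1.05, SE 0.46, limma adjusted p = 0.156), and it passed both limits only without sh-KLF5 replicate 1 (limma adjusted p = 0.0489). KCNIP3 had 19.6, 19.7 and 27.6 against 5.10, 22.3 and 8.02 (log2 fold change -1.08, 95% interval -2.12 to -0.048, limma adjusted p = 0.1696), and it passed only without sh-KLF5 replicate 2, the highest of its group (limma adjusted p = 0.0446).

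The most abundant auxiliary genes per kilobase were KCNAB2, KCNMB4 and KCNIP2. KCNAB2 ranged from 138 to 242 normalized counts in sh-NC and from 105 to 193 in sh-KLF5 (log2 fold change -0.34, limma adjusted p = 0.390), and KCNMB4 from 68.9 to 101 and from 59.2 to 66.2 (log2 fold change -0.46, SE 0.22, limma adjusted p = 0.206). KCNIP2 had a log2 fold change of -0.055 (SE 0.36, limma adjusted p = 0.948), whose sign turned in edgeR, at 0.036. KCNE1 had 1, 2 and 1 reads in sh-NC and none in sh-KLF5, and its near-identical copy KCNE1B was not among the deposited genes. KCNMB3 shares 37.9% of its exonic bases with PIK3CA on the opposite strand, and KCNRG, a gene named for a protein that suppresses Kv1 channel assembly, shares 66.8% with TRIM13 on the same strand. KCNRG had 5 to 11 reads in every library and was not tested.

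Levels per kilobase of gene length allow genes to be set side by side. In sh-NC the highest were KCNN4 at 212 ± 27.9 normalized counts per kilobase (SD, n = 3), KCNK2 at 206 ± 17.2 and KCNK1 at 173 ± 17.2, followed by KCNK5 at 74.9 ± 6.73 and KCNG1 at 69.4 ± 3.48. The libraries of the first 3 genes overlapped in range, as did those of KCNK5 and KCNG1. In sh-KLF5 the order was KCNK2 at 251 ± 30.2, KCNK1 at 139 ± 21.1, KCNN4 at 92.8 ± 22.0, KCNG1 at 78.6 ± 8.11 and KCNK5 at 47.1 ± 9.70, and of these neighbours the libraries of KCNN4 and KCNG1 alone overlapped. KCNJ15 moved from rank 31 at 3.75 ± 0.24 to rank 7 at 33.3 ± 13.2, while KCNH5, despite a similar fold, reached only 7.01 ± 2.14 per kilobase.

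Summed over the 70 genes the control libraries had 1056 ± 66.1 normalized counts per kilobase and the silenced ones 909 ± 80.1 (SD, n = 3 per group). The sums ranged from 990 to 1122 in sh-NC and from 818 to 968 in sh-KLF5 and did not overlap. KCNN4 alone went from 212 ± 27.9 in sh-NC to 92.8 ± 22.0 in sh-KLF5, which is most of the difference between the mean sums. The lower sum is therefore not a fall across the channel genes. Calcium- and sodium-activated channels, in effect KCNN4, made up 20.2% ± 1.38 of the sum in sh-NC and 10.1% ± 1.58 in sh-KLF5. The share of the two-pore channels was 45.6% ± 1.05 and 50.7% ± 1.47, in which KCNK2 alone had 19.5% ± 0.96 and 27.6% ± 1.30. Voltage-gated channels had 21.5% ± 0.57 and 24.5% ± 0.77, and inward rectifiers 4.65% ± 0.70 and 6.67% ± 1.01, of which KCNJ15 was 3.61% ± 1.24 in sh-KLF5. Auxiliary subunits had 7.50% ± 0.70 and 7.53% ± 1.60, which overlap. Shares add up to a whole, so the fall of KCNN4 raises the others by construction, and these sums are given as a description without a test.

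**Figure D3:**
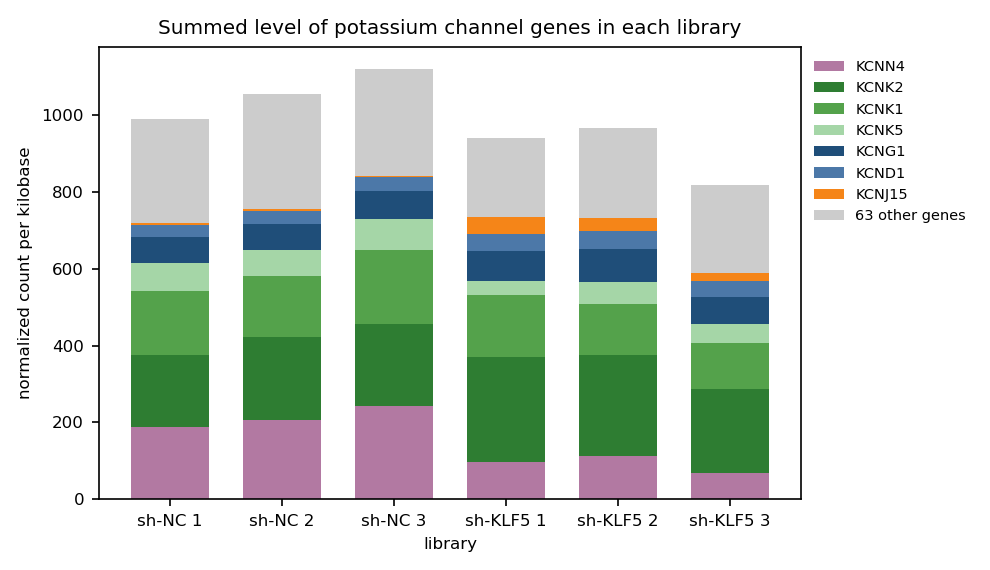
Summed level of the 70 potassium channel genes in each library, in normalized counts per kilobase of gene length, stacked by gene for the 7 named genes and as 1 grey block for the other 63. KCNN4 (bottom) is thinner and KCNJ15 (orange) thicker in the sh-KLF5 bars, and KCNK2 and KCNK1 are large in all 6.

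The 32 genes below the filter had at most 17 reads in any library, and 14 of the 70 genes had 3 reads or fewer in every library. Together they had 350 reads in sh-NC and 187 in sh-KLF5. By summed reads, 20 had more in sh-NC, 10 more in sh-KLF5 and 2 the same number. In 8 of the 32 every sh-KLF5 library was below every sh-NC library, and in none was it above, where of all 13382 genes below the filter 6.69% were below and 3.52% above. Those genes are of all kinds, while the channel genes are protein-coding. Of the 3268 protein-coding genes below the filter, 377 were below and 133 above, a larger share below than over all kinds. Among the 8 were KCNJ4, KCNJ10, KCNJ11, KCNN1, KCNT2, KCNK13 and KCNE1. Of the 8, 3 were inward rectifiers, a class with 7 genes below the filter. KCNT2 and KCNE1 each had 1, 2 and 1 reads in sh-NC, KCNK13 had 1, 5 and 2, and all 3 genes had 0 in every sh-KLF5 library. With up to 3 reads allowed for a count of 0, the groups of these 3 genes cannot be told apart. In 8 genes (25%) no sh-KLF5 library had a read, against 15.3% of all genes below the filter, and in 3 (9.38%) no sh-NC library had one, against 9.91%. KCND3, the A-type channel related to KCND1, had the most reads on the other side, at 2, 3 and 6 in sh-NC and 2, 17 and 11 in sh-KLF5, and its groups overlapped. KCND3 and the lists of non-overlapping genes are named after their values were seen.

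**Figure D4:**
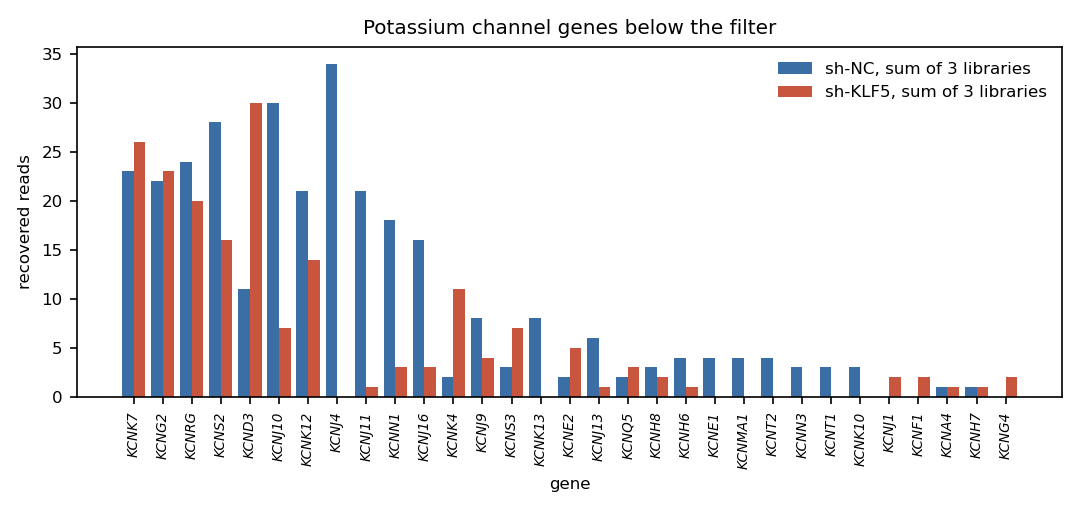
Recovered reads summed over 3 libraries in sh-NC (blue) and sh-KLF5 (red) for 31 of the 32 potassium channel genes below the read filter, ordered by total. KCNJ4, KCNJ10 and KCNJ11 have 34, 30 and 21 reads in sh-NC and 0, 7 and 1 in sh-KLF5.

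A further list held 40 genes that serve potassium channels or move potassium under other names, of which 31 were in the table and 19 were tested. By the rule used for the channels 1 was called higher and 1 lower, beside the 1.9% and 3.37% of all genes tested given above. ABCC9, the sulfonylurea receptor SUR2 that joins Kir6 pores into ATP-sensitive channels, had 121, 113 and 67.9 normalized counts in sh-NC and 307, 248 and 400 in sh-KLF5, with no overlap (log2 fold change 1.67, SE 0.23, limma adjusted p = 9.35e-05). Its known pore partner here is KCNJ11, which had 1 read over the sh-KLF5 libraries, and the second pore gene, KCNJ8, was not among the deposited genes. SLC12A3, the thiazide-sensitive sodium-chloride cotransporter, which carries no potassium itself but belongs to the cation-chloride cotransporter family, had 41.9, 54.2 and 45.6 against 4.08, 1.94 and 0 (log2 fold change -4.28, SE 0.57, limma adjusted p = 7.79e-05). Its 4, 2 and 0 reads in sh-KLF5 mean that SLC12A3 passed the read filter only through sh-NC, where it was high. The value moved to -3.63 without sh-KLF5 replicate 3, the library at 0, and to -2.93 with a pseudocount of 5.

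HCN2, a hyperpolarization-activated channel that passes sodium and potassium, rose without reaching the fold limit (log2 fold change 0.50, SE 0.13, limma adjusted p = 0.0154). The abundant beta subunits of the sodium-potassium pump, which builds the gradient these channels use, did not pass the test, with log2 fold changes of 0.15 for ATP1B1 and 0.13 for ATP1B3 and 95% intervals that ran from -0.15 to 0.45 at the outermost. The calmodulin genes CALM2 and CALM3, whose product opens KCNN4, had log2 fold changes of 0.19 and 0.013, neither past the test.

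Position along the genome was examined for the genes above with adjusted p under 0.05. The neighbours were the nearest tested genes of any kind on either side without overlap, and this rule was chosen after the values were seen. NOS3, the endothelial nitric oxide synthase, lies 12.7 kb from the start of KCNH2 (log2 fold change -3.57, SE 0.65, limma adjusted p = 0.00120) and was itself called lower. HHAT, 0.527 kb from the end of KCNH1 opposite to its start, rose by 0.81 (limma adjusted p = 0.0115). SLC6A17, 9.14 kb from KCNC4, fell by 0.44 (limma adjusted p = 0.0396). On their other sides the nearest tested genes lay further away. AC073111.5, 532 kb from KCNH2, had a log2 fold change of 0.56 (limma adjusted p = 0.119). RCOR3, 124 kb from KCNH1, had one of 0.16 (limma adjusted p = 0.420), and RBM15, 55.4 kb from KCNC4, one of -0.27 (limma adjusted p = 0.163). The neighbours of KCNJ15, KCNH5, KCNN4 and KCNK5, from 11.5 kb (SMG9) to 1804 kb (OARD1) away, did not pass the test. Of all genes tested 6.04% rose and 6.85% fell by adjusted p alone.

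Upstream windows were in the RefSeq table for 52 of the 70 genes, and 18 had none. A GC box was found in 63.5% of the 52 windows and in all 7 of those that belong to a gene past the p threshold. A CACCC was found in 65.4% and in 5 of the 7, beside 42.6% and 54.7% of all windows. For each channel gene only the window nearest its annotated start was used, while the set of all windows was not reduced in this way. The shares are therefore not a like comparison. Of the 7, only KCNJ15, KCNN4, KCNH1, KCNH2 and KCNH5 were checked for exon overlap, and KCNC4 and KCNK5 were not. The windows of KCNJ15 and KCNN4 lie wholly in annotated exons of release 29, with 250 of 250 bases exonic. Their RefSeq starts are inside the gene as that release draws it. The channel windows were also richer in G and C, with a median of 66.2% against 58.0%, which moves with both counts, and the part this plays was not tested. A match is a spelling in the sequence and says nothing of binding in these cells.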

How the data were processed

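RNA-seq was measured in 3 sh-NC and 3 sh-KLF5 libraries of SKOV3 cells, grouped by the sample labels. The authors deposited a table of 29185 genes whose values are a normalized signal, that is read counts divided by 1 factor per library. The submitters' processing notes name hg38, HISAT2 2.0.5, featureCounts 1.5.0-p3 and DESeq2 1.20.0, and the strand setting is not given in the sources used here. The authors' own group means, log2 fold changes and p-values, from their comparison of the 2 groups, were deposited in the same table and were not used.

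Each value divided by the value of 1 read in its library gave the reads back, and 100% of the values came out whole within a relative tolerance of 1e-06. Totals were 15852319 to 17543896 reads, so that the limit of 3 reads for a count of 0 is 0.171 to 0.189 CPM. Pairs of libraries within a group differed beyond sampling noise (chi-square per degree of freedom 4.66 to 34.3, the highest with sh-KLF5 replicate 1), so all 6 were kept as separate.

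The test was limma 3.58.1 in R 4.3.3 (trend, robust) on log2(normalized count + 1) for the 15803 genes that passed filterByExpr of edgeR 4.0.16 with a minimum count of 10, adjusted by Benjamini-Hochberg over all of them and called at adjusted p under 0.05 and a log2 fold change past 1. A count test was not the main one because the files hold divided counts. edgeR and DESeq2 1.42.0 on the recovered reads, other scalings, filters and pseudocounts, a replicate block and leaving out each library were alternatives. The procedure was tested on simulated data. Counting intervals are exact, cover counting error only and have a level of 95%. Gene coordinates and exon overlaps are from GENCODE release 29 on GRCh38, which holds all 29185 genes, and upstream sequences from RefSeq on GRCh38.p14. The channel genes, their classes, the list of other potassium genes and the tests were chosen with earlier results of these data known. Named genes are KLF5, those with adjusted p under 0.05, the 3 tested genes of each class with the highest level per kilobase, tested genes past 1 that missed the p threshold, genes with 3 reads or fewer in all libraries of 1 group and over 10 in a library of the other, called genes of the second list and near-identical copies. Others are said to be chosen after their values were seen, or complete a class. Some genes that this rule would name are not reported here, and they stay in the counts.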

Additional observations from a re-analysis of the deposited data

How the results depend on the processing

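The 7 channel genes called by the test in the report were also the 7 called with edgeR, DESeq2, scaling by library size or TMM factors, pseudocounts of 0.5 and 5, and the replicate block. The limits are the number of reads and the filter. Requiring at least 10 reads in every library, which leaves 26 of the channel genes and removes genes that are low in 1 group, gave 1 channel gene higher and 2 lower, and without a fold limit 1 and 3, beside 241 higher and 231 lower of all 13951 genes tested with the fold limit. Among the other potassium genes it gave 0 lower. Without a filter, 8 channel genes were called lower, beside 811 of all 29185 genes, and 9 were lower without a fold limit. In that fit 2 of the other potassium genes were called lower. With unadjusted p under 0.05 and the fold limit 7 channel genes were lower, and the share of all genes under this rule is not given here. Of all calls, 63.9% were lower, and 48.9% under the stricter filter. As libraries were left out in turn, called channel genes numbered 2 in each case for those higher, with KCNH1 lost each time, and 4 to 6 for those lower. Of the 16209 to 16402 genes tested in these fits, 253 to 337 were called higher and 461 to 620 lower. Without a fold limit there were 2 higher and 4 to 8 lower, the 8 without sh-KLF5 replicate 1. For the alternative fits, the share of all genes without a fold limit is not given here. KCNIP2 turned from -0.055 to 0.036 with edgeR and 0.033 with DESeq2, and ranged from -0.30 to 0.35 as libraries were left out (0.045 without sh-NC replicate 1, 0.35 without sh-KLF5 replicate 1), and the cause was not tested. With the replicate number as a block, 3 channel genes were called higher and 4 lower, as without it, and the KLF5 log2 fold change was -1.53. Libraries with the same number did not deviate together (correlations 0.06, 0.03 and 0.05), so the numbers were not taken as pairs.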

Other observations

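Beside the protein-coding genes, 6 rows of the table bear names that start with KCN and are of other kinds, antisense or intronic transcripts for the most part. Among these, KCNQ1OT1, the long antisense transcript of the imprinted KCNQ1 locus, was the only one with enough reads for the test. KCNQ1OT1 (ENSG00000269821, chr11:2608328-2699994, GRCh38) had 954, 1083 and 726 normalized counts in sh-NC and 491, 620 and 532 in sh-KLF5, with no overlap between the groups. It fell to 59.5% of the control mean (log2 fold change -0.74, SE 0.15, limma adjusted p = 0.00317), without passing the fold limit. KCNQ1, on the opposite strand, had at most 18 reads in a library.

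KCNH1-IT1, a transcript inside an intron of KCNH1, had 1, 1 and 0 reads in sh-NC and 5, 2 and 2 in sh-KLF5, which does not overlap and is too little for a test. KCNJ2-AS1, KCNK15-AS1, KCNIP2-AS1 and KCNK4-TEX40 had at most 10 reads in a library, and their groups overlapped.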
